A study of Mus musculus with 4 samples.

Results

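The interferon-stimulated genes are those that a cell switches on when it senses interferon, and 30 of them were followed here in hematopoietic stem cells (HSC) of mouse bone marrow. The members were chosen by name: 8 mainly type I genes (Ifit1, Ifit2, Ifit3, Isg15, Oas1a, Oasl1, Oasl2 and Mx1), 7 GTPases of the GBP and IRG families (Gbp2, Gbp3, Gbp5, Gbp7, Igtp, Irgm1 and Iigp1) and 15 others (signalling factors, sensors and further effectors). All 30 of the 30 were found among the 20062 genes of each table. The study sorted HSC from 2 old and 2 young bone marrow samples, all of the Gfp-Lc3 genotype and isolated at steady state, to ask which transcripts go with autophagy in old HSC. Gfp-Lc3 mice carry a green fluorescent protein fused to LC3, a protein of the autophagosome membrane. The labels give no ages beyond old and young. The values come from 8 tables in which the authors compared cell clusters, c1 with c2 and each of the 7 clusters, c1 to c7, with all cells outside it. The tables carry no sample or age, so old and young are not compared here, and the sources used here do not say how the clusters were made.

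Type I interferons signal through the receptor IFNAR, whose kinases activate factors of the STAT family. The complex ISGF3, which holds STAT2 and IRF9, then binds a DNA element called the interferon-stimulated response element (ISRE). Interferon gamma signals through its own receptor to another element, the gamma-activated site (GAS), and induces IRF1. The Ifit, Oas, Mx and Isg15 genes are known mainly as type I targets. The GBP and IRG GTPases are strongly induced by interferon gamma, and members of both families attack vacuoles that hold pathogens. Both kinds of interferon are known to push quiescent HSC into cycle.

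Promoter sequences are shown first because the ISRE and the GAS are the elements named above for type I interferon and interferon gamma. RefSeq windows on GRCm38.p6, running from 250 bases before to 50 bases after each annotated transcript start, were available for 24 of the 30 members. The core searched for the ISRE was GAAA, any 2 bases and another GAAA, and that for the GAS was TTCNNNGAA, each on both strands. Overlapping matches were each kept. The ISRE core lay in at least 1 window of all 6 GTPases with a window, of 4 of 7 type I genes and of 6 of 11 other members, against 3.99% of the 27025 genes in the whole set. The GAS core lay in a window of 3 of the 6 GTPases (Gbp5, Gbp7 and Igtp), of 2 of the 7 type I genes (Ifit2 and Oas1a) and of 2 of the 11 others (Irf1 and Bst2), against 9.55% of all genes. A match is only a run of letters and is not shown to be a bound site. The 170 bases before the start are printed 5′ to 3′ on each gene's own strand for 5 GTPases, for 6 type I genes with and without a core, and for Bst2 and Irf1 (the first listed window of Ifit2 and Irf1), with every ISRE or GAS core in capitals.
Igtp, chr11:58199386-58199555, plus strand: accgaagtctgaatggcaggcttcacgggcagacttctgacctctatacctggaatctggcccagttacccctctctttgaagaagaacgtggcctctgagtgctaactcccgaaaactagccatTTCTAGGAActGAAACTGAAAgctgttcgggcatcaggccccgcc
Irgm1, chr11:48871421-48871590, minus strand: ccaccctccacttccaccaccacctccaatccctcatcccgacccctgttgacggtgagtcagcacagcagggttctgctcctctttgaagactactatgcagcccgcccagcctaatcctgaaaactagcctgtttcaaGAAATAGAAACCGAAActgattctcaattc
Gbp2, chr3:142620493-142620662, plus strand: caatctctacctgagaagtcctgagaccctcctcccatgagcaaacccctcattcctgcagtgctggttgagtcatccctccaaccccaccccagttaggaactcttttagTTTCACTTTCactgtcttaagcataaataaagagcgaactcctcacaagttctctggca
Gbp5, chr3:142496764-142496933, plus strand: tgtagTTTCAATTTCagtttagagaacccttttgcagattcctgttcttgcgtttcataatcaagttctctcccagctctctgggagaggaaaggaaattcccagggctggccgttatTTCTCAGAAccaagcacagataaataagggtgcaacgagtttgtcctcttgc
Gbp7, chr3:142530166-142530335, plus strand: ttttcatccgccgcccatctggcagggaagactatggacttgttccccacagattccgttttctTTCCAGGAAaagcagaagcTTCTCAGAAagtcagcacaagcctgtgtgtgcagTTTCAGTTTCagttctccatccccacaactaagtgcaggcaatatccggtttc
Ifit1, chr19:34640719-34640888, plus strand: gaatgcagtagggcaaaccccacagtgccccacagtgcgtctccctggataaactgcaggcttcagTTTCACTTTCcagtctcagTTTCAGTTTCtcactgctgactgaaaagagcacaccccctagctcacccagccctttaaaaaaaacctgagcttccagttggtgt
Ifit3, chr19:34583359-34583528, plus strand: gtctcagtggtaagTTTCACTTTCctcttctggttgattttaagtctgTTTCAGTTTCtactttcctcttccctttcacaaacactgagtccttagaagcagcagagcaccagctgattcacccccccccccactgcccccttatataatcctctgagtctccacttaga
Ifit2, chr19:34550524-34550693, plus strand: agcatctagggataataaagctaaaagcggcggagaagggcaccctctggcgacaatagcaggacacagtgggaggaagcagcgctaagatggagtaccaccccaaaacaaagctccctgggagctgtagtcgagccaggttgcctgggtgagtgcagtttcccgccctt
Oasl1, chr5:114923070-114923239, plus strand: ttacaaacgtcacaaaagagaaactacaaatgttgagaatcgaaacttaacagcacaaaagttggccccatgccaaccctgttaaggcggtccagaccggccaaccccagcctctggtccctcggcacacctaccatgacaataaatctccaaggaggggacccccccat
Oasl2, chr5:114896764-114896933, plus strand: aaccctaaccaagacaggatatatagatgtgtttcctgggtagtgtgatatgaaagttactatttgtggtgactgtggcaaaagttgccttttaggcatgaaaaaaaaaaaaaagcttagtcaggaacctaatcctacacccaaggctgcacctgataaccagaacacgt
Isg15, chr4:156200819-156200988, minus strand: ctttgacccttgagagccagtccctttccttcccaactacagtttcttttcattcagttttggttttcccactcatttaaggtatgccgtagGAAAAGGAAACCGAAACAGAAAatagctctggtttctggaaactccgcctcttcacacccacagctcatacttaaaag
Bst2, chr8:71537473-71537642, minus strand: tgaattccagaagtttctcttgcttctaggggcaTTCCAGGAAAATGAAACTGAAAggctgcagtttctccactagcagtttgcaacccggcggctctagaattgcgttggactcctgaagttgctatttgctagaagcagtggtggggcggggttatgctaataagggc
Irf1, chr11:53769844-53770013, plus strand: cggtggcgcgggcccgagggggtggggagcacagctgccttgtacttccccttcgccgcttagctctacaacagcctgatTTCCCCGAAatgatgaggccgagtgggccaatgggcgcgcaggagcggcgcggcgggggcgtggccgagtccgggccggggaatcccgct

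In Igtp the GAS core and the ISRE core stood 2 bases apart close to the start, whereas in Gbp7 a pair of GAS cores lay upstream of a single ISRE core. No core was found in the windows of Oasl1 and Oasl2, and the GAS core of Ifit2 lies upstream of the bases printed. In Irgm1 and Isg15 the ISRE cores overlapped in tandem, and in Bst2 a GAS core ran into a tandem of ISRE cores. The plot of motif positions gives the same cores for all 24 members with a window. Mx1, Usp18, Ifi27l2a, Rtp4, Iigp1 and Zbp1 had no entry.

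**Figure D1:**
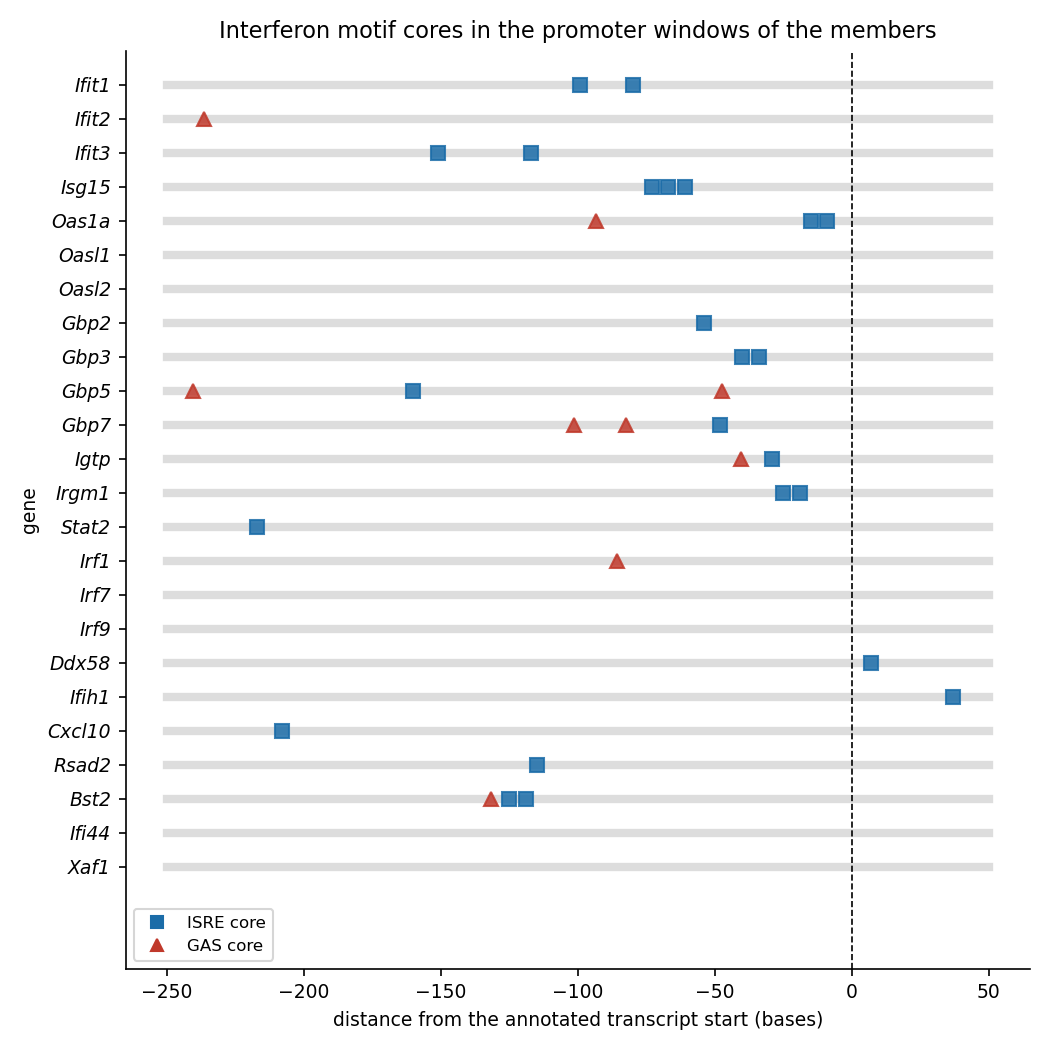
Positions of the ISRE core (squares) and GAS core (triangles) by distance in bases from the annotated transcript start, for the 24 members with a promoter window (grey bars, where a gene with more than 1 window has its matches drawn on 1 line). The GTPases Gbp5, Gbp7 and Igtp carry both cores, as do Oas1a and Bst2, and the cores of Ddx58 and Ifih1 are those that lie after the start.

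The clusters differed in what cells they held. The estimated share of all cells was 40.7% (c1), 33.7% (c2), 12.2% (c3), 10.3% (c4), 1.67% (c5), 1.03% (c6) and 0.345% (c7). With these shares, the mean level of each gene in each cluster was rebuilt from the deposited overall mean and fold change. Levels are on the tables' scale, on which all genes sum to 10000. The summed level of 9 HSC markers (Procr, Slamf1, Hlf, Mecom, Ly6a, Kit, Mllt3, Hoxb5 and Fgd5) was 16.8 in c1, 18.9 in c2, 9.92 in c3, 9.38 in c4 and 3.97 in c5, against at most 0.940 in c6 and at most 1.72 in c7. By these sums c1 to c4 held HSC markers, although 9 of 9 were called lower (defined below) in c3 against the other cells. In c4, 7 of 9 were called lower, with Procr at -2.49 and Ly6a at -1.88 by the authors' deposited table. In c5 all 9 were called lower, with Procr at -1.66 and Ly6a at -1.81 by the authors' deposited table. The other HSC markers had lower fold changes in c5 than in c4. In c6 all 9 were at the lower limit of the fold change. Neutrophil markers (S100a8, S100a9, Ngp, Camp and Ltf) summed to at least 958 in c5 and at least 1038 in c6, against 32.2 to 40.7 in c1 to c4. B lineage markers summed to at least 13.7 in c7. Proliferation markers (Mki67, Top2a, Cdk1, Mcm5 and Pcna) summed to 8.70 in c3 and at least 20.6 in c4, against at most 0.766 in c1 and at most 1.06 in c2. A call below means an adjusted p-value of the authors under 0.05. The unit behind that p-value is not given, the number of cells and the depth are unknown, and no value has a replicate or a standard error, so a call describes these cells and not mice.

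The direct comparison of c1 with c2 divided the members, as the plot of c1 against c2 shows. In c1, 7 of the 30 were called higher and 12 lower, and 11 were not called, against 15.4% of all genes called higher and 22.0% called lower. In the upper part of the tables, at or above the median of mean expression, 21.8% of genes were called higher and 37.2% lower, and 26 of the 30 members lay there, of which 7 were higher and 10 lower, so the counts stand near that background. By set, all 3 IRG GTPases were among the 7 higher ones, and no type I gene was. This division by set was not tested. At an adjusted p under 0.01, 5 members were higher and 10 lower, and Irgm1 and Gbp2 were no longer among the higher ones. Counting only log2 fold changes of at least 0.5 in size, 3 members were higher (Igtp, Bst2 and Rtp4) and 3 lower (Mx1, Ifi27l2a and Oasl1). Here and below, no share over all genes was computed at these stricter settings. Such counts therefore have no background and are not to be set against the shares given. Sex-linked and age-linked genes moved with the same comparison. Xist was at -4 and the Y-linked genes Ddx3y and Eif2s3y were at 0.78 and 1.03 by the authors' deposited table for c1 over c2, and 5 of 5 aged HSC markers (Selp, Nupr1, Sbspon, Clu and Aldh1a1) were called higher in c1. All 4 granulocyte-monocyte progenitor markers were also called higher in c1, with a summed level of 10.8 in c1 and at most 4.85 in c2. Of these sums the highest single gene made up 10.5 in c1 and 4.77 in c2. In c1 against the other cells, Prtn3 was called higher, and Mpo, Elane and Ctsg lower. In c1, 4 of 5 proliferation markers, 2 of 5 neutrophil markers (S100a8 and S100a9), 1 of 4 monocyte markers (Ms4a6c), 1 of 6 B lineage markers (Cd79b) and 1 of 4 erythroid markers (Hbb-bt) were called lower, and 1 of 5 T and NK markers (Klrb1c) was called higher. Of the 9 HSC markers 4 were called higher and 3 lower, and no marker of plasmacytoid dendritic cells or macrophages was called. The part of these differences in the interferon values was not tested.

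**Figure D2:**
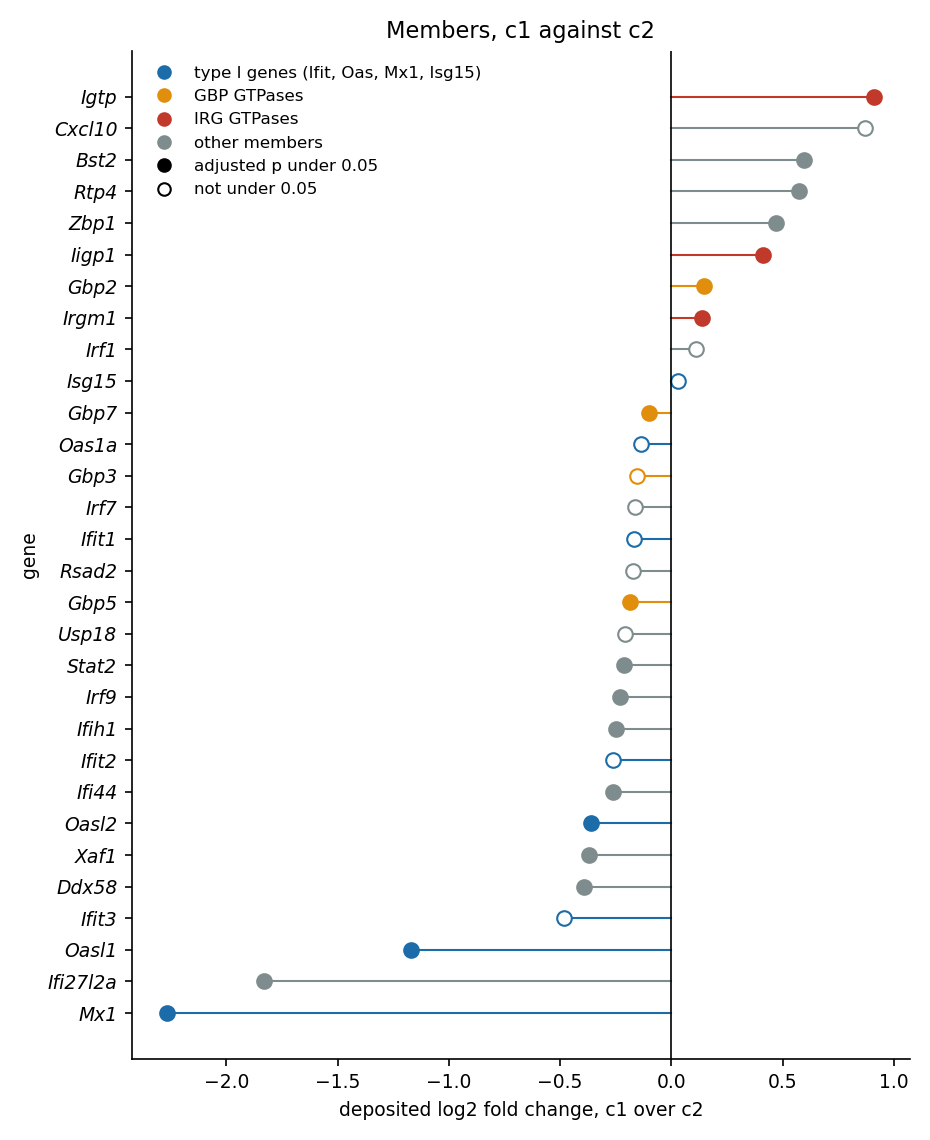
Deposited log2 fold change of c1 over c2 for the 30 members in order of size (horizontal axis, log2), coloured by set, with filled points where the adjusted p was under 0.05. The 3 IRG GTPases lie between 0.14 and 0.91, and Mx1 lies lowest at -2.27.

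The IRG genes encode immunity-related GTPases that act on vacuole membranes, and they were highest in c1. Igtp, a regulatory IRG also called Irgm3, had a rebuilt level of 0.518 in c1 and 0.279 in c2, and 0.273 in c3 and 0.293 in c4. Its level in c1 thus stood apart from an almost flat series in c2 to c4. By the authors' deposited table for c1 over c2, Igtp was at 0.91 and was called. Iigp1, an effector IRG that coats the vacuoles of parasites, was at 0.862 in c1 and 0.657 in c2, and at 0.394 in c3 and 0.349 in c4, which is a descending order from c1 to c4. It was at 0.41 by the authors' deposited table for c1 over c2, and called. Irgm1, a regulatory IRG whose loss in mice is known to disturb HSC, differed least, with 0.472 in c1 and 0.430 in c2, a value of 0.14 by the authors' deposited table. Igtp lies on chromosome 11 (GRCm38, 58199556 to 58207591, plus strand) and Irgm1 on chromosome 11 (48861968 to 48871683, minus strand). In GENCODE M21 the annotated gene of Irgm2 overlaps Igtp on the same strand, so the split of reads between them is uncertain.

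The GBP genes, which encode large GTPases that assemble on pathogen vacuoles, did not follow the IRG genes between c1 and c2. The 4 members lie in a row on the plus strand of chromosome 3 in GRCm38: Gbp5 from 142493978 to 142522344, Gbp7 from 142530342 to 142550149, Gbp3 from 142560026 to 142573209 and Gbp2 from 142620602 to 142638008. By the authors' deposited table for c1 over c2, Gbp2 was at 0.15 and called higher. Gbp5 at -0.19 and Gbp7 at -0.10 were called lower by the authors' deposited table, and Gbp3 at -0.15 was not called. Gbp2 at the end of the row thus had the other sign from the other GBP members. None of the 4 members had an adjusted p under 0.01 in this comparison. The rebuilt levels were 0.411 in c1 and 0.373 in c2 for Gbp2, 0.259 in c1 and 0.295 in c2 for Gbp5, and 0.958 in c1 and 1.03 in c2 for Gbp7. All of these differences are small beside that of Igtp. In GENCODE M21 Gm43802 overlaps Gbp7 on the same strand.

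The type I genes encode proteins that bind viral RNA and hold back its translation (Ifit), a synthase that triggers RNA decay (Oas1a) and its relatives (Oasl1 and Oasl2), a ubiquitin-like tag (Isg15) and a dynamin-like GTPase that acts on viral nucleocapsids (Mx1). In c1 relative to c2, none of the 8 was called higher, against 15.4% of all genes and 21.8% of genes in the upper part of the tables. Of the 8, 3 were called lower, against shares of 22.0% and 37.2%, so that count stands near the second share. Mx1 was at -2.27, Oasl1 at -1.17 and Oasl2 at -0.36 by the authors' deposited table for c1 over c2. Oasl2 had a rebuilt level of 0.432 in c1 and 0.552 in c2. Mx1 and Oasl1 were weakly expressed, with mean levels of 0.0132 and 0.0316, and lie among the 4 members below the median expression. Isg15, at 0.315 in c1 and 0.308 in c2, and Oas1a, at 0.182 in c1 and 0.201 in c2, were not called. Oas1a belongs to a family of near-identical copies, as does Ifit3, and how the authors' counting shared their reads is unknown. Many laboratory strains are known to carry a defective Mx1, and the strain is not given here.

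As the plot of both sets shows, the median of the 8 type I genes was -0.31 and that of the 7 GTPases 0.14 by the authors' deposited table for c1 over c2, where the median of all genes was -0.03. The type I median minus the GTPase median was -0.45 in c1 against c2. It was -0.72 with the IRG genes alone and -0.18 with the GBP genes alone, a split chosen after the values were seen. In c1 against the other cells the type I median was -0.09 and the GTPase median 0.27 by the authors' deposited table. In c2 against the other cells the order turned, with 0.56 for type I genes and 0.10 for GTPases by the authors' deposited table, but the difference of 0.46 was 0.014 when only members in the upper part of the tables were kept. The comparisons of c1, of c2 and of c1 with c2 share cells and are not independent of each other. The type I range ran from -2.27 to 0.03 and the GTPase range from -0.19 to 0.91 by the authors' deposited table for c1 over c2, so the sets overlapped.

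**Figure D3:**
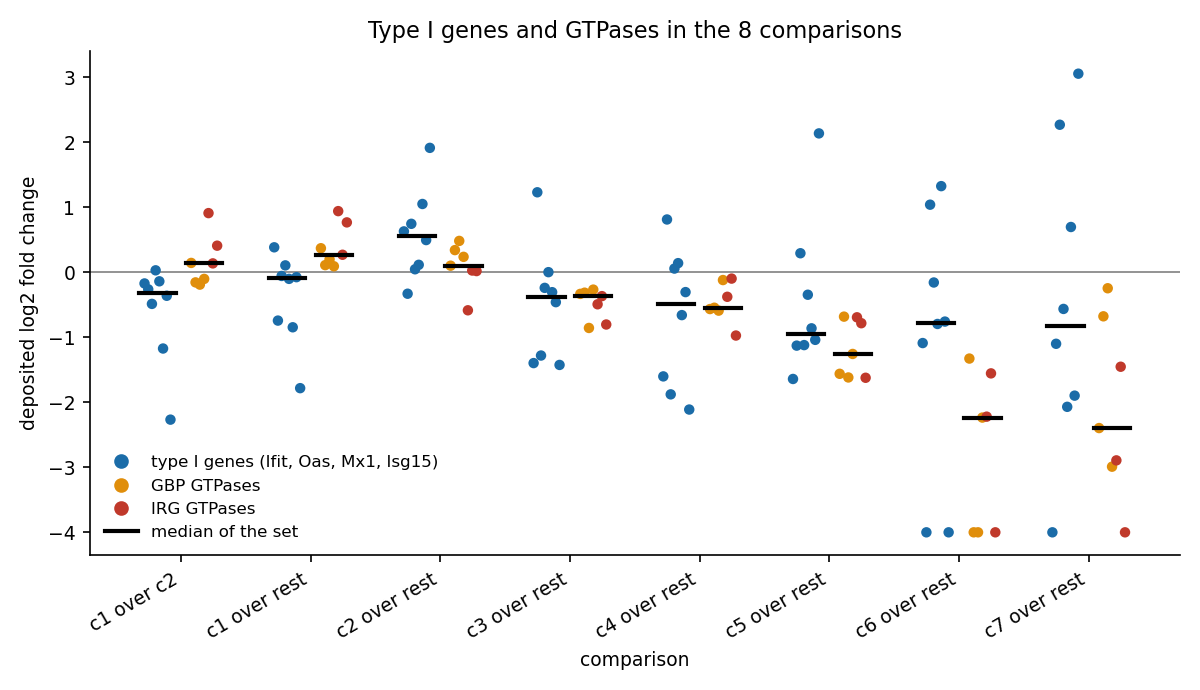
Deposited log2 fold change of each type I gene (left in each pair) and each GTPase (right) in the 8 comparisons, with a bar at the median of the set. In c1 over c2 the type I median is -0.31 and the GTPase median 0.14, and in c3 and c4 the medians of both sets lie below 0.

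Most factors of the pathway and both RNA sensors were called higher in c2, while Irf1 and Zbp1 were not. STAT2 and IRF9 are parts of ISGF3, and IRF7 amplifies interferon production. By the authors' deposited table for c2 over the rest, Irf9 was at 0.37, Stat2 at 0.34 and Irf7 at 0.31, all called. Irf1, the factor induced through GAS elements, was called higher in c1, at 0.24 by the authors' deposited table for c1 over the rest. In c2 it was at 0.05 by the authors' deposited table and was not called. Directly, Irf9 at -0.23 and Stat2 at -0.21 were called lower by the authors' deposited table for c1 over c2, while Irf1 at 0.11 and Irf7 at -0.16 were not called. The RNA sensors RIG-I (Ddx58) and MDA5 (Ifih1) were at -0.39 and -0.25 by the authors' deposited table for c1 over c2, both called. Their rebuilt levels were 0.332 in c1 and 0.435 in c2 for Ddx58, and 0.281 in c1 and 0.333 in c2 for Ifih1. ZBP1, a sensor of Z-form nucleic acids that can start necroptosis, went the other way, with a Zbp1 level of 0.165 in c1 and 0.119 in c2 and a value of 0.47 by the authors' deposited table for c1 over c2. In GENCODE M21 the annotated genes of Irf9 and Irf7 overlap Rnf31 on the same strand and Phrf1 on the other. Usp18, which removes ISG15 from proteins and dampens IFNAR signalling, was at -0.21 by the authors' deposited table for c1 over c2 and was not called. The chemokine gene Cxcl10 had a mean level of 0.0204 and was not called in any of the 8 tables.

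Among the other effectors, Bst2 and Rtp4 went with the IRG genes. Bst2 encodes tetherin, which holds budding virus at the cell surface, and had its highest rebuilt level in c1, at 1.98 in c1 and 1.33 in c2, with 1.64 in c3 and 1.18 in c4. Rtp4, an interferon-induced gene of a receptor transporter protein, was at 0.621 in c1 and 0.422 in c2. Both were called in c1 against c2, at 0.60 for Bst2 and 0.57 for Rtp4 by the authors' deposited table. In GENCODE M21 the annotated span of Rtp4 overlaps Masp1 on the other strand and Gm45338 on the same strand, and the strand setting of the counting is unknown. Ifi44 and Xaf1, which encode an interferon-induced cytoplasmic protein and an antagonist of the apoptosis inhibitor XIAP, were lower in c1, at -0.26 and -0.37 by the authors' deposited table for c1 over c2. Rsad2, the gene of viperin, was at -0.17 there by the authors' deposited table and not called. Ifi27l2a, which encodes a small hydrophobic protein, had the widest spread of the 30 members over c1 to c4, with rebuilt levels of 0.0340 in c1, 0.121 in c2, 0.0904 in c3 and 0.295 in c4.

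**Figure D4:**
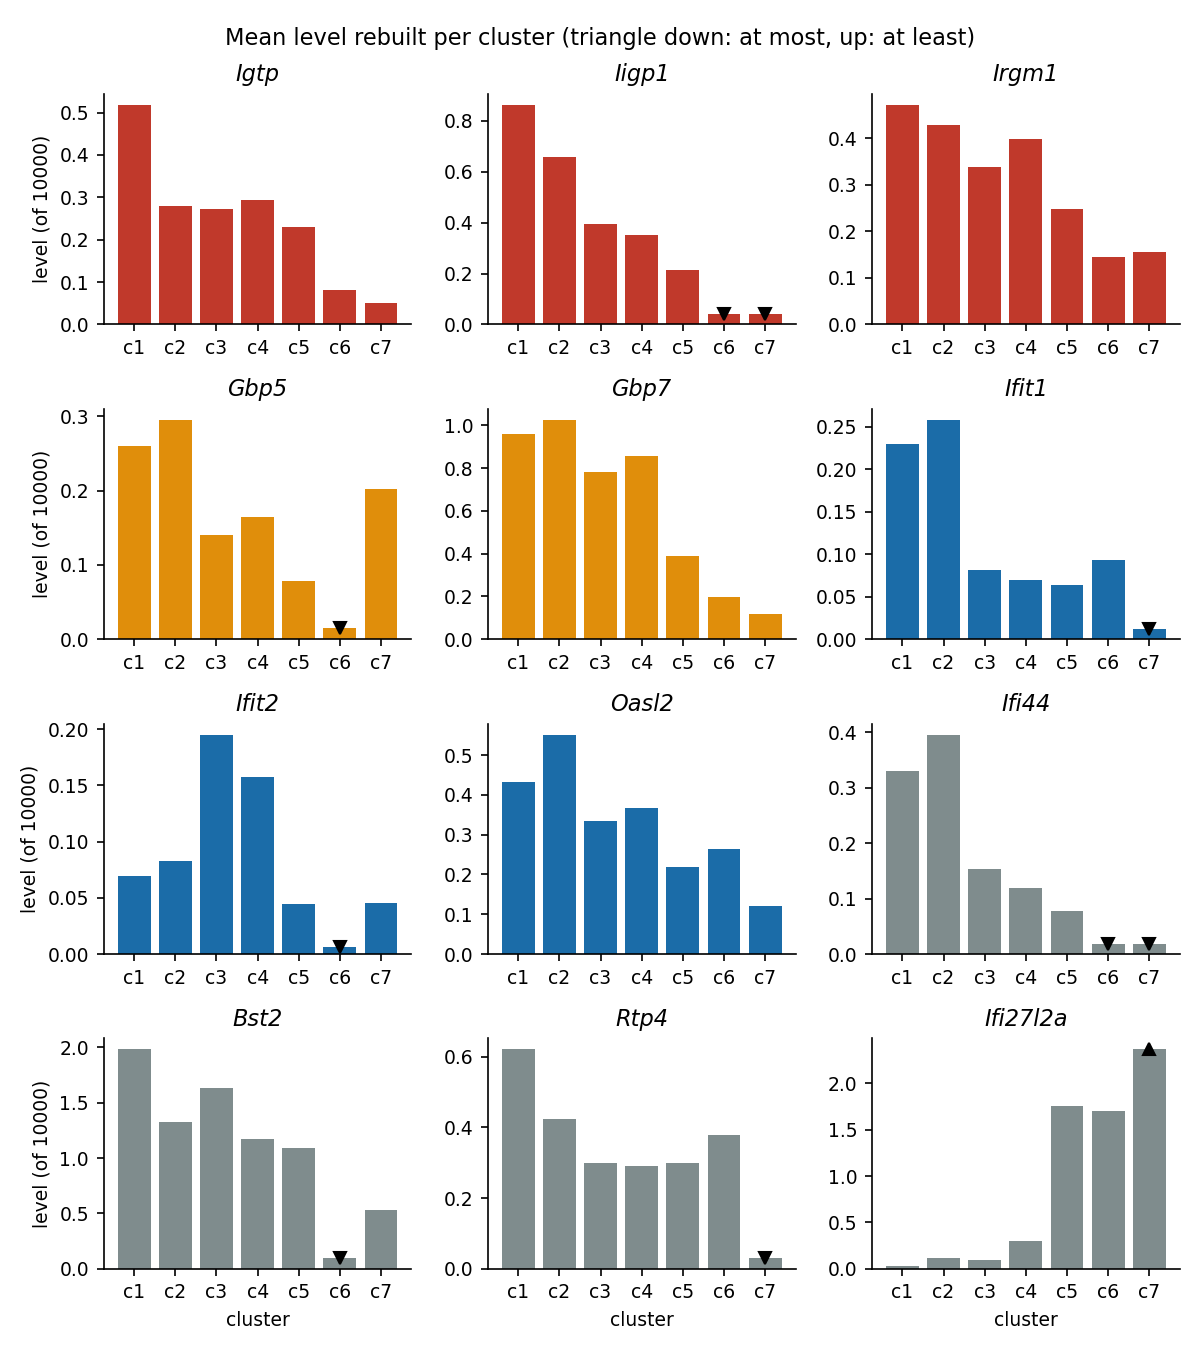
Mean level of 12 members rebuilt for each cluster, c1 to c7 (vertical axes start at 0, on a scale where all genes sum to 10000), with triangles where the deposited fold change was at its limit, so that the bar is an upper or lower bound. Igtp stands highest in c1 at 0.518, Ifit2 in c3 at 0.195, and Ifi27l2a in c7 at 2.37 or more.

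Over the 4 large clusters, 9 members had their highest rebuilt level in c1, 15 in c2 and 6 in c3 or c4. Of the 26 members in the upper part of the tables, 5 were highest in c3 or c4, whereas 64.1% of the 9879 genes at or above the median and off the fold limits were highest there. The highest level over the lowest among c1 to c4 was 1.14-fold for Oas1a, 1.21-fold for Isg15, 7.76-fold for Mx1 and 8.66-fold for Ifi27l2a. The median over the 30 members was 1.67-fold, against 1.49-fold over those 9879 genes. The sets are unlike, because the 30 include 4 members below the median expression and the 9879 genes include none. Those members were Mx1, Ifit3 at 4.64-fold, Oasl1 at 2.31-fold and Cxcl10 at 1.92-fold.

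Most members were lower in c3 and c4, the clusters in which proliferation markers were high and HSC markers low relative to c1 and c2. The part of those marker differences in the interferon values was not tested. In c3 against the other cells, 17 members were called lower and 1 higher, against 10.2% of all genes called lower and 18.1% called higher. For genes in the upper part of the tables the shares were 17.1% lower and 32.5% higher. In c4 against the other cells, 16 members were called lower and 3 higher, where 10.6% of all genes were lower and 24.3% higher, and 16.7% and 44.2% of those in the upper part of the tables. The members thus went against the direction of most called genes in both tables. Counting only log2 fold changes of at least 0.5 in size, 10 members were called lower in c3. Of the 7 GTPases, 6 were called lower in c3 and 5 in c4. Iigp1 was at -0.80 and Gbp5 at -0.85 by the authors' deposited table for c3, and Iigp1 at -0.97 and Gbp5 at -0.59 by the authors' deposited table for c4. Ifi44 was at -1.04 by the authors' deposited table for c3 and -1.41 by that for c4.

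The Ifit genes divided in c3 and c4 although they are neighbours. On chromosome 19 of GRCm38, Ifit2 lies from 34550694 to 34576419, Ifit3 from 34583531 to 34588731 and Ifit1 from 34640871 to 34650009, all on the plus strand. Ifit1 was at -1.40 by the authors' deposited table for c3 and -1.60 by that for c4, both called. Ifit2 was at 1.23 by the authors' deposited table for c3 and 0.81 by that for c4, also both called, and was the only member called higher in c3. The rebuilt levels of Ifit2 were 0.0692 in c1, 0.0827 in c2, 0.195 in c3 and 0.158 in c4, and those of Ifit1 were 0.230 in c1, 0.259 in c2, 0.0813 in c3 and 0.0701 in c4. The more weakly expressed Ifit3, at -1.28 by the authors' deposited table for c3 and not called, and at -1.88 by that for c4 and called, had the sign of Ifit1. Both Ifit1 and Ifit3 have a pair of ISRE cores in their printed promoters, and the windows of Ifit2 held a GAS core and no ISRE core. Any part of these cores in the division of the Ifit genes was not tested. In c4 the other members called higher were Ifih1 at 0.37 and Ifi27l2a at 1.08 by the authors' deposited table.

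In c1 against the other cells 12 members were called higher and 6 lower, where 13.3% of all genes were higher and 29.7% lower (18.1% and 47.7% of genes in the upper part of the tables). Of the GTPases 6 of 7 were called higher and none lower, with Gbp3 at 0.11 by the authors' deposited table not called. Counting only log2 fold changes of at least 0.5 in size, 5 members were higher. In c2 against the other cells 16 were called higher and 6 lower, where 15.9% of all genes were higher and 21.4% lower (27.1% and 31.5% in the upper part of the tables). With the minimum of 0.5 there were 5 higher and 2 lower. The largest values by the authors' deposited table for c2 were 1.92 for Mx1, 1.05 for Oasl1 and 0.75 for Ifit3, all weakly expressed, and then 0.69 for Ifi44 and 0.63 for Ifit1. Igtp at -0.58 and Ifi27l2a at -0.52 had the lowest values of those called by the authors' deposited table for c2. The map of members by cluster gives all values.

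**Figure D5:**
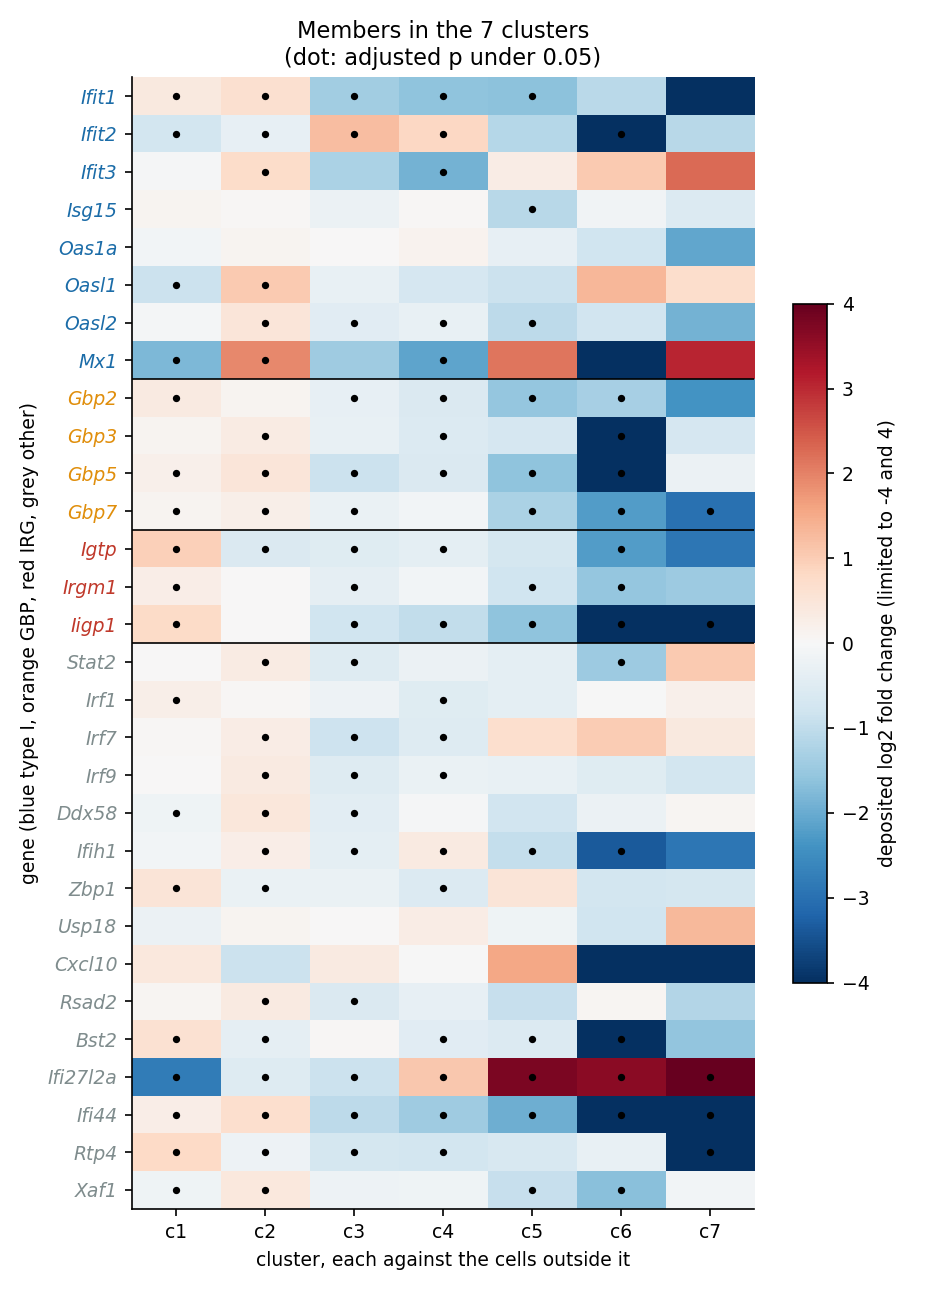
Deposited log2 fold change of each member (rows, by set) in c1 to c7, each against the cells outside it (columns), on a colour scale limited to -4 and 4, with a dot where the adjusted p was under 0.05. Most rows are below 0 in c3, c4 and c5, with Ifit2 at 1.23 in c3 and Ifi27l2a at 3.77 in c5 as the called members that lie highest in c3 and in c5.

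Most members had negative fold changes in the small clusters c5, c6 and c7, and so did most genes in each of them, with a median over all genes of -0.52 in c5 and of -4 in c6 and in c7 by the authors' deposited tables. In c5 against the other cells, 12 members were called lower and 1 higher, where 9.30% of all genes were lower and 7.17% higher (18.5% and 10.5% in the upper part of the tables). At an adjusted p under 0.01, 6 were lower. Ifi44 at -1.96, Ifit1 at -1.64, Iigp1 at -1.62 and Gbp5 at -1.62 were the lowest by the authors' deposited table for c5. In c6 against the other cells, 13 members were called lower and 1 higher, where 35.7% of all genes were lower and 5.20% higher (69.0% and 7.53% in the upper part of the tables). All 13 were among the 26 members in the upper part of the tables. The median of genes in the upper part of the tables was -2.24 by the authors' deposited table for c6. With that median subtracted, 7 of the called members had a positive sign and 7 a negative one. The positive values included Gbp7 at 0.0053 and Igtp at 0.020. The authors' p-values belong to the fold changes before this shift, so no call goes with the shifted signs. A fold change at the bottom limit of -4 was listed for 8 members by the authors' deposited table for c6, and of these Bst2, Gbp3, Gbp5, Iigp1, Ifit2 and Ifi44 were called. In c7 against the other cells, 4 members were called lower (Ifi44, Rtp4, Gbp7 and Iigp1) and 1 higher, where 5.16% of all genes were lower and 1.02% higher (10.3% and 1.45% in the upper part of the tables). At an adjusted p under 0.01, 1 was lower.

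Ifi27l2a was the member called higher in each of c5, c6 and c7. It was at 3.77, 3.60 and the upper limit of 4 by the authors' deposited tables of c5, c6 and c7. The rebuilt levels were 1.76 in c5, 1.70 in c6 and at least 2.37 in c7, against 0.0340 to 0.295 in c1 to c4. In c1 it was at -2.81 by the authors' deposited table for c1 over the rest. Markers of mature blood cells were high in the same clusters. All 5 neutrophil markers were called higher in c5 and in c6, and all 6 B lineage markers in c7. In c5, 4 of 4 monocyte, 3 of 4 granulocyte-monocyte progenitor, 2 of 5 macrophage and 2 of 5 T and NK markers were also called higher, and in c6 2 of 4 monocyte markers and 1 of 5 T and NK markers were. In c7 1 of 7 plasmacytoid dendritic cell markers was called higher. Their part in the Ifi27l2a values was not tested.

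The wider pathway was followed with 7 lists of other interferon genes, of which 113 of 127 genes were in the tables. Of the ligands only Ifng and Ifnl2 were listed, and neither was called in any table. Counts of called genes in c1 against c2 are to be read against the 15.4% of all genes called higher and 22.0% called lower, or 21.8% and 37.2% in the upper part of the tables. Of the receptors and kinases 1 of 9 was called higher and 6 lower. Ifnar1, a chain of the type I receptor, was at -0.43, Ifnar2, its partner, at -0.11, and Ifngr2, a chain of the interferon gamma receptor, at -0.34 by the authors' deposited table for c1 over c2, all called. The kinase gene Jak1 at -0.15 was called too, and Ifngr1 at -0.09 was not called by the authors' deposited table. The gene called higher was Ifnlr1, at the limit of 4 by the authors' deposited table with a mean level of 0.00671, and it is named because it is the only such gene, a choice made with its value in view.

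Among the other GBP and IRG genes, 6 of 14 were called higher and 2 lower in c1 against c2. The shares over all genes were 15.4% higher and 22.0% lower (21.8% and 37.2% in the upper part of the tables). In c1 against the other cells 9 of 14 were called higher and none lower. Of all genes 13.3% were higher there and 29.7% lower (18.1% and 47.7% in the upper part of the tables). Irgm2 was at 0.44, Tgtp1 at 0.49, Tgtp2 at 0.47 and Ifi47 at 0.59 by the authors' deposited table for c1 over c2, and all 8 called genes of this list are named with their values in view. Tgtp1 and Tgtp2 are near-identical copies whose reads may be shared. The remaining higher genes were Gbp4 and F830016B08Rik, at 0.98 and 0.57 by the authors' deposited table. The 2 lower ones were Gbp9 at -0.42 and Gvin1 at -0.42 by the authors' deposited table. In c3 and c4 none of the 14 was called higher, and 8 in c3 and 9 in c4 were called lower. Of all genes 10.2% were lower in c3 and 10.6% in c4 (17.1% and 16.7% in the upper part of the tables). The shares called higher were 18.1% in c3 and 24.3% in c4 (32.5% and 44.2% in the upper part of the tables).

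The other type I induced genes were called higher for 11 and lower for 23 of 54 in c1 against c2. The shares there were 15.4% higher and 22.0% lower over all genes, and 21.8% and 37.2% in the upper part of the tables. The list also holds genes below that part. Among those called in the upper part of the tables, Phf11d at 2.08 and Slfn2, a regulator of immune cell quiescence, at 1.46 were highest by the authors' deposited table for c1 over c2. Plac8 at -1.58 and Phf11b at -0.85 were low by the authors' deposited table. In c2 against the other cells 18 of 54 were higher and 13 lower, where 15.9% of all genes were higher and 21.4% lower (27.1% and 31.5% in the upper part of the tables). Of the feedback inhibitors 2 of 8 were higher and 6 lower in c1 against c2, and the higher ones were Socs3 at 1.83 and Socs1, which blocks JAK kinases of both pathways, at 0.57 by the authors' deposited table, the second of them named with its value in view. Of the other STAT and IRF factors 4 of 13 were higher and 6 lower, with Irf5 at -1.28 by the authors' deposited table. Of the other sensors and adaptors 1 of 13 was higher and 5 lower. The shares called in c1 against c2 were 15.4% higher and 22.0% lower over all genes (21.8% and 37.2% in the upper part of the tables). In c3 and c4 the DNA sensor gene Mb21d1, which encodes cGAS, was at 2.07 and 1.41 by the authors' deposited tables, the highest of the called wider genes in the upper part of the tables.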

How the data were processed

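Per the labels' protocols, HSC of Gfp-Lc3 mice were profiled by droplet sequencing and SmartSeq2. For droplets, the labels' protocols give 1 sample per condition and the design text gives 2 replicates per age, and which assay the tables hold is not stated. GSNAP, HTSeq and Scanpy and the build GRCm38.p4 are named, without roles, per the submitters' processing notes. The sources used here do not give the cell filters, doublet treatment, strand setting or test. The deposited mean expression is on a log2 scale, as 2 raised to it sums to 10000 (34992 with a natural base). The authors' log2 fold changes are limited to -4 and 4. Their deposited adjusted p-values match the Benjamini-Hochberg adjustment over 20062 genes. In 8 genes the mean holds an error text.

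Calls at an adjusted p-value under 0.05 were counted per direction. No new test was made, and no sample-level test was possible with these tables. A cluster's level is its share-weighted solution of overall mean and fold change. Shares came from least squares over 987 genes with log2 mean expression between -5 and -3 (scipy 1.17.1, pandas 2.3.3), and the procedure was tested on simulated data. Rebuilt c1 over c2 differed from the direct table by a median of 0.00132 (log2) over 9916 genes and by at most 0.019 for the members. Neither the shares nor the levels have an interval.

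The members and lists were chosen with earlier results of these data known. All members are accounted for. From the wider lists, at most 3 highest and 3 lowest called genes per table at or above the median expression were eligible to be named, with Ifnar1, Ifnar2, Ifngr1, Ifngr2, Jak1, Xist, Ddx3y and Eif2s3y in any case. A further gene of the pathway is not reported here and was left out of the lists.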

Additional observations from a re-analysis of the deposited data

How the results depend on the processing

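The 8 comparisons gave 80 alternative counts of called members, 49 alternative differences between type I genes and GTPases and 21 alternative shares or levels. Of these 70, 20 and 20 stayed close to the value reported, within 1.5 times for counts, 0.1 (log2) for differences and 10% for levels. Recomputing the adjustment and requiring the median expression moved no count by more than 1.5 times.

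Counting only log2 fold changes of at least 0.5 in size, the counts were 3 higher and 3 lower in c1 against c2, 5 higher in c1, 5 higher and 2 lower in c2 and 10 lower in c3. At an adjusted p under 0.01 there were 6 lower in c5 and 1 lower in c7. The share over all genes was not computed at either of these settings. Centred on the median of expressed genes (those at or above the median of mean expression), 7 called members of c6 had a positive sign and 7 a negative one. These are signs only, as no test was made on the centred values.

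The type I minus GTPase difference kept its negative sign in c1 against c2, at -0.77 with means, -0.31 with expressed members, -0.18 with GBP genes alone and -0.72 with IRG genes alone, and in c1, at -0.78, -0.24 and -0.86 with means, GBP genes and IRG genes. It stayed positive in c2, at 0.014 with expressed members, 0.20 with all non-GTPase members as type I and 0.27 with GBP genes. In c3, where it was -0.02, it reversed to 0.0058 with means, 0.13 with expressed members and 0.11 with IRG genes. In c4, where it was 0.06, it reversed to -0.23 with means and -0.10 with IRG genes, and was 0.60 with expressed members and 0.24 with all non-GTPase members. In c5, where it was 0.31, it reversed to -0.17 with IRG genes, and was 0.71 with means, 0.14 with expressed members, 0.72 with all non-GTPase members and 0.46 with GBP genes. In c6 it was 1.71 with means and 2.34 with GBP genes. In c7 it was 0.50 with expressed members, 1.36 without members at the fold limit, 1.69 with all non-GTPase members, 0.71 with GBP genes and 2.06 with IRG genes. The cause was not tested for any of these. The split into GBP and IRG genes was chosen after seeing the data. The share of c6 was 0.918% when estimated over genes of intermediate expression. No paired analysis was possible because the tables hold no samples, and for the same reason no replicate could be left out.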
